A study of Homo sapiens with 4 samples.

Results

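The genes described here encode the nuclear subunits of oxidative phosphorylation (OXPHOS), the enzymes of the inner mitochondrial membrane that make most of a cell's ATP from respiration. They were found by gene symbol: every probe set annotated to exactly 1 gene whose current symbol begins with NDUFA, NDUFB, NDUFC, NDUFS or NDUFV (complex I, without the NDUFAF assembly factors), SDHA to SDHD (complex II), UQCR (complex III), COX4 to COX8 (complex IV) or one of the ATP synthase stems ATP5F1, ATP5MC, ATP5ME, ATP5MF, ATP5MG, ATP5PB, ATP5PD, ATP5PF and ATP5PO (complex V). The rule took 98 of the 22277 probe sets on the array, which belong to 66 of the 11963 genes with such a probe set. Of these, 64 are subunit genes: 28 of complex I, 3 of complex II, 6 of complex III, 13 of complex IV and 14 of complex V. The other 2, the pseudogene ATP5MC2P1 and the antisense RNA NDUFB2-AS1, match by name only.

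Total RNA came from BJ-TE, a human cell line that the labels describe no further; BJ is a known line of foreskin fibroblasts. The cells carried either a control hairpin RNA (labelled ns shRNA) or a hairpin against p73 (p73 shRNA), p73 being a transcription factor of the p53 family, and were harvested at 40% or at 100% confluence. The series title concerns p73 and malignant transformation. Each of the 4 combinations was measured on 1 Affymetrix expression array, so no group has a replicate, and the labels name neither the clone or pool nor the hairpin sequences.

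In respiration, complexes I and II take electrons from NADH and succinate, complex III passes them to cytochrome c, and complex IV hands them to oxygen. Complexes I, III and IV pump protons out of the matrix, and complex V, the ATP synthase, lets them back in to drive ATP synthesis. Some subunits are encoded in mitochondrial DNA; all genes described here are nuclear, and their promoters are known for sites of NRF1, of the ETS factor GABP and of YY1.

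The reference promoters of the subunit genes held those motifs more often than promoters at large did, which serves as a description of the genes and not of the 4 arrays. A window from 250 bases before to 50 bases after the transcription start (RefSeq, GRCh38.p14) was matched for 56 of the 64 subunit genes and searched on both strands. The NRF1 motif, GCGCA and GCGC with any base between them, was present in 21.4% of the 56 windows, in 6.28% of all 27305 windows and in 13.0% of the 5716 windows of genes bright enough to be tested here. The ETS motif CCGGAAG was present in 30.4%, 10.7% and 21.0% of the same windows, and the YY1 motif AAGATGGCG in 12.5%, 1.85% and 4.72%. The GC box of SP1, GGGCGG, was in 60.7% of the subunit windows, above the 44.6% of all windows but below the 73% of the tested genes, and the hypoxia response core ACGTG was in 25%, 21.6% and 28.4%. None of the 5 motifs contains another, though matches can share bases.

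The sequences below are the windows of the subunit genes that changed with confluence and hold an NRF1, ETS or YY1 match, shown to let these matches be read beside the direction of change, together with NDUFAB1, the gene that fell most. Capitals mark NRF1, ETS or YY1 matches. NDUFA8 lies at chr9:122159730-122160029 on the minus strand, UQCR10 at chr22:29767119-29767418 on the plus strand, NDUFS7 at chr19:1383657-1383956 on the plus strand, ATP5MG at chr11:118401356-118401655 on the plus strand, ATP5ME at chr4:674227-674526 on the minus strand and NDUFAB1 at chr16:23596267-23596566 on the minus strand.
NDUFA8: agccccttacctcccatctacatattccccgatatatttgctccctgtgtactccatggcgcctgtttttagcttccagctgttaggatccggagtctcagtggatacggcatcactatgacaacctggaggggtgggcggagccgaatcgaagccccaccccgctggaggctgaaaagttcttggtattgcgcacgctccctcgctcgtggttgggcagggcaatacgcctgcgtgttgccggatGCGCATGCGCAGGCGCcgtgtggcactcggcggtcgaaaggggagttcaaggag
UQCR10: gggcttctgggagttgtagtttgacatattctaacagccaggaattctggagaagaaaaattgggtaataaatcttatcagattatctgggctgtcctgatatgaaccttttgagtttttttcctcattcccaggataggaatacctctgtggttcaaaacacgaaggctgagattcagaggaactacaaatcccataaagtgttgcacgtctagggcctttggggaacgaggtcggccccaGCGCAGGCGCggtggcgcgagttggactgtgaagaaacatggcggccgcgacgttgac
NDUFS7: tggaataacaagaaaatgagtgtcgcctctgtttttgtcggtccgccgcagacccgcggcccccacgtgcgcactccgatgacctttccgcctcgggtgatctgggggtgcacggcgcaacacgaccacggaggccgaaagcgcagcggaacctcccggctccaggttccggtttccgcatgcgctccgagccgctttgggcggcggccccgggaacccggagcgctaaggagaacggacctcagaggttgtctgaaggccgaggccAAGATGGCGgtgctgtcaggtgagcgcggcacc
ATP5MG: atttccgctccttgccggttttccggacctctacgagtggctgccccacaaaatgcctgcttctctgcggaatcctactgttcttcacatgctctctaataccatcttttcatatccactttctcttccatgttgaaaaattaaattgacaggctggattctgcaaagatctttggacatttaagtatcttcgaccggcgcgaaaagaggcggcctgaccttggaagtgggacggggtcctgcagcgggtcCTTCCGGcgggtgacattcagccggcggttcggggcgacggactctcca
ATP5ME: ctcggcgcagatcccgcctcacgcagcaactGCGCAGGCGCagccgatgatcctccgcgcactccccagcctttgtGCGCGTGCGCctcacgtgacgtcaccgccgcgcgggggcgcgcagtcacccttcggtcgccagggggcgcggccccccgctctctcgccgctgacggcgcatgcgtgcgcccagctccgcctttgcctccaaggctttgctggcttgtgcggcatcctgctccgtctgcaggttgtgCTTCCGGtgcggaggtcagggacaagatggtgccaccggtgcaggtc
NDUFAB1: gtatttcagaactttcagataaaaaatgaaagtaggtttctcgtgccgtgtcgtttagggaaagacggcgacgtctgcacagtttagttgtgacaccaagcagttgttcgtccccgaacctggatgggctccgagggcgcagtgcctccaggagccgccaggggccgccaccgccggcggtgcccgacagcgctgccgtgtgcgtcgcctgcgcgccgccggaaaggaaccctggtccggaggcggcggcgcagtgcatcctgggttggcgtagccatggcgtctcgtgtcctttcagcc
In NDUFA8 a pair of overlapping NRF1 matches spans the start of transcription, and in UQCR10 there is 1 such match at the same place. ATP5ME, which rose, has NRF1 matches further upstream and an ETS match after the start. NDUFS7 carries a YY1 match and ATP5MG an ETS match. The NDUFAB1 window holds no match to the 5 motifs. An NRF1 match was found in 1 of 4 windows of genes that rose with confluence, 2 of 10 of genes that fell and 9 of 41 of genes not called. For the ETS motif these counts were 1 of 4, 1 of 10 and 15 of 41, and for YY1 they were 0, 1 and 6.

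The deposited intensities were already scaled, with a trimmed mean of 500.1 to 500.2 on each array. The median over all probe sets was 104.5 to 106.4 on the arrays at 40% confluence and 119.6 to 122.1 at 100%, whereas the 99th percentile ran the other way and was highest, 13157, on the p73 shRNA array at 40%. Subunit probe sets are bright, with a median of 2657 to 2949, so the medians of the members and of each complex are also given after quantile normalization, which gives all arrays the same distribution, and for single genes it is named where it ends a call. The TP73 probe set read 1.65 to 2.09 on all 4 arrays, at the floor of the scale, so the knockdown could not be checked. The ratio of 3' to 5' signal was 0.93 to 1.02 for GAPDH and 1.09 to 1.47 for ACTB, with ACTB highest on the confluent arrays. All 16 fibroblast markers were above the brightness filter, against 2 of 7 epithelial markers (KRT18 and LAMB3), 0 of 5 endothelial markers, 1 of 4 blood markers (LAPTM5), 4 of 6 smooth muscle markers and 1 of 6 markers of skeletal and heart muscle (ACTC1). The summed intensity of the smooth muscle markers was 8547, 8423, 5354 and 4585 (ns shRNA at 40%, p73 shRNA at 40%, ns shRNA at 100%, p73 shRNA at 100%), lower on the confluent arrays, and its part in the results below was not tested.

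Subunits were tested on log2(intensity + 11.6), with 11.6 the 20th percentile of all intensities, using limma over the 4 arrays with confluence and shRNA as additive terms. A gene was represented by its brightest probe set and was tested if that lay above the median brightness of all probe sets. This left 6759 genes, 63 of them members. The 3 members below the filter were COX6A2, the muscle isoform of a complex IV subunit, with intensities of 23.0 (ns shRNA, 40%), 35.9 (p73 shRNA, 40%), 59.4 (ns shRNA, 100%) and 38.6 (p73 shRNA, 100%), ATP5MC2P1 (94.3, 52.6, 51 and 98.3) and NDUFB2-AS1 (24.6, 57.9, 34.4 and 46.8). Wherever 4 intensities are given, they stand in that order. The spread behind each p-value is the disagreement of the 2 hairpins or the 2 stages, shared across genes of like brightness. It includes no replicate culture, so the p-values speak of these 4 arrays. The median member stood at the 90.8th percentile of signal among tested genes and 54 of 63 stood above the 75th. This describes the signal behind the ratios and not transcript abundance.

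Confluence moved few subunit genes, and none by 2-fold. Of the 63 tested, 5 rose and 10 fell at an adjusted p below 0.05 (limma, Benjamini-Hochberg over all tested genes), which is 23.8% of the members against 36.6% of all tested genes. By direction, 7.94% of members rose against 20.4% of all genes, and 15.9% fell against 16.1%. The median size of the average log2 ratio, sign ignored, was 0.15 for members and 0.32 for all genes. Only NDUFAB1 and COX7A1, 2 members, reached an average of 1.5-fold, whereas 23.6% of all tested genes did, and 0 members reached 2-fold in any of the 4 pairwise ratios against 13.7% of all genes. The median log2 ratio was -0.02 over the members and 0.01 over all genes, and after quantile normalization it was 0.02 and -0.01, so the sign of the members' median turned with the scaling.

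**Figure D1:**
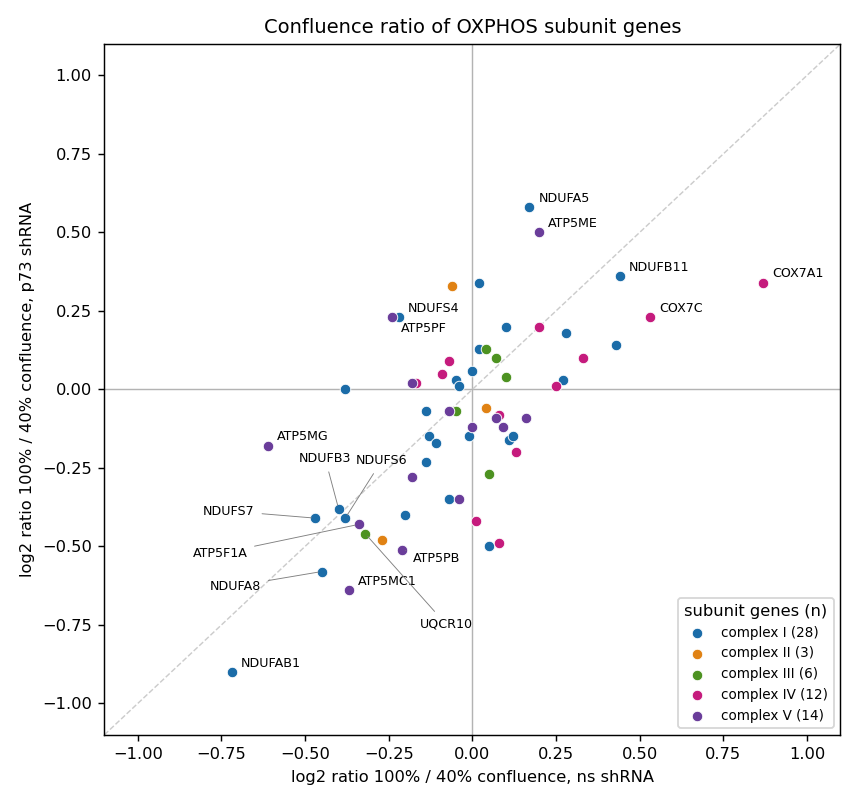
Log2 ratio of 100% to 40% confluence for the 63 tested subunit genes, with ns shRNA on the x axis and p73 shRNA on the y axis, coloured by complex. The points cluster near 0, NDUFAB1 lies lowest with both hairpins, and NDUFS4 and ATP5PF lie at opposite signs.

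Complex I, the NADH dehydrogenase, held the gene with the strongest fall. NDUFAB1 is the mitochondrial acyl carrier protein, both an accessory subunit of complex I and a carrier in mitochondrial fatty acid synthesis. Its probe set 202077_at read 4720, 6095, 2865 and 3265. Both confluent arrays were far below both sparse ones, the log2 ratio was -0.72 with ns shRNA and -0.90 with p73 shRNA, and the average was -0.81 (SE 0.14, limma adjusted p = 1.43e-07). This was the only member called in all 10 alternative analyses.

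NDUFA8, an accessory subunit facing the intermembrane space, read 2749, 3246, 2010 and 2170, again with no overlap between stages. It fell by 0.51 on the log2 scale (SE 0.15, limma adjusted p = 0.00219), and its call was lost in 1 of 10 alternatives. NDUFS7, an iron-sulphur core subunit, read 827, 1024, 595 and 767 and fell by 0.44 (SE 0.17, limma adjusted p = 0.0309). NDUFS6 read 3655, 3871, 2802 and 2917, and NDUFB3 read 2230, 2748, 1684 and 2105. In these 3 genes too, both confluent arrays lay below both sparse arrays. NDUFS6 and NDUFB3 are accessory subunits, and each fell by 0.39. The calls of NDUFS7, NDUFS6 and NDUFB3 ended without the intensity trend (limma adjusted p = 0.0662, 0.0964 and 0.0978) but not with quantile normalization.

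The 2 complex I genes that rose were NDUFB11 and NDUFA5, both accessory subunits. NDUFB11, which is encoded on the X chromosome, read 2263, 2367, 3082 and 3046 and rose by 0.40 (SE 0.14, limma adjusted p = 0.0185). NDUFA5 read 1198, 976, 1353 and 1463 and rose by 0.38 (SE 0.16, limma adjusted p = 0.0476). The stages did not overlap in either gene, but without the intensity trend neither passed (0.0901 and 0.125), and NDUFA5 also missed the threshold with quantile normalization (0.0688).

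Over complex I as a whole 2 genes rose, 5 fell and 21 were not called. The median log2 ratio was -0.05, and -0.02 with quantile normalization. Among the 5 tested core subunits, which belong to the catalytic arm of the complex, 1 fell and the average was below 0 in 4. NDUFS3 was at -0.21, NDUFV1 at -0.23, NDUFV2 at -0.19 and NDUFS1 at 0.18, none of which passed the test. The accessory subunits had a median of -0.02, with 2 risen and 4 fallen of 23.

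Complex II, succinate dehydrogenase, had no call in 3 genes. SDHA, the flavoprotein, read 1974, 1908, 2035 and 1832, a log2 ratio of -0.01. SDHD, a membrane anchor, read 2115, 1544, 2024 and 1946, a ratio of 0.13. The other anchor, SDHC, read 1165, 1433, 962 and 1022, and its ratio of -0.38 just missed the threshold (limma adjusted p = 0.0501). All 4 SDHC probe sets were lower at confluence, by -0.26 to -0.40. When probe sets were tested on their own, the brightest of them was called (limma adjusted p = 0.0495). SDHB was not analysed here.

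Complex III, which passes electrons from ubiquinol to cytochrome c, had 1 call in 6 genes. UQCR10, a small accessory subunit, read 5751, 7097, 4600 and 5154 and fell by 0.39 (SE 0.14, limma adjusted p = 0.0164; with quantile normalization 0.0544). The core proteins UQCRC1 and UQCRC2 stood at -0.06 and 0.07. UQCRB, which helps bind ubiquinone, depended on the probe set. Its brightest, 205849_s_at, read 5535, 5740, 5792 and 6164 with a ratio of 0.08, whereas 209066_x_at read 4769, 4673, 6378 and 7078 with a ratio of 0.51 (limma adjusted p = 0.00154 among probe sets). The dim 209065_at read 202, 175, 286 and 244 with a ratio of 0.47, which did not pass (limma adjusted p = 0.115 among probe sets). UQCRFS1 was not analysed here.

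Complex IV, cytochrome c oxidase, had 2 genes that rose, 0 that fell and 10 not called. The largest rise among all members was that of COX7A1, the isoform of subunit 7A typical of heart and skeletal muscle. It read 149, 243, 282 and 312 and was the dimmest tested member, at the 18.8th percentile of signal among tested genes. The confluent arrays were above the sparse ones, though the ns shRNA array at 40% stood well below the other 3. The log2 ratio was 0.87 with ns shRNA and 0.34 with p73 shRNA, on average 0.61 (SE 0.23, limma adjusted p = 0.0309), and with quantile normalization it was 0.48 (0.0973). The call was lost in 4 of the 9 alternatives in which this gene was tested. The summed intensity of the 6 skeletal and heart muscle markers on the array was 539, 632, 238 and 230, lower on the confluent arrays. Their part in the COX7A1 result was not tested. The widely expressed counterpart COX7A2 read 7294, 7482, 6848 and 7773, a ratio of -0.02, and COX7A2L, which joins complexes III and IV into supercomplexes, read 1930, 2383, 1939 and 1773, a ratio of -0.21.

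COX7C, a small structural subunit, read 6310, 6896, 9119 and 8062 and rose by 0.38 (SE 0.14, limma adjusted p = 0.0194). Its other probe sets were at 0.13 and 0.28, and the call was lost without the intensity trend (0.118). The widely expressed isoforms COX4I1, COX6A1, COX6B1 and COX8A had ratios of -0.04, 0.01, 0.13 and -0.21, and none passed. COX5B, not called by its brightest probe set (0.20), depended on the probe set. Its 211025_x_at read 1778, 2966, 2863 and 3149, with overlapping stages and a ratio of 0.38 (limma adjusted p = 0.0273 among probe sets). Its 202343_x_at was at 0.25 and did not pass. The median of complex IV was 0.00 and became 0.14 with quantile normalization, the largest move of the 5 complexes. COX4I2, COX6B2 and COX8C were not analysed here. A former member of complex I now placed in complex IV, COXFA4 (once NDUFA4), falls outside the symbols used and read 3499, 3818, 3573 and 3627, a ratio of -0.02. Its hypoxia-linked relative COXFA4L2 was below the filter at 12.2, 27.7, 3.5 and 49.9.

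Complex V, the ATP synthase, had 1 gene that rose, 4 that fell and 9 not called. ATP5MC1 is 1 of 3 genes that encode the identical mature c subunit of the membrane rotor, and differs from ATP5MC2 and ATP5MC3 in its targeting peptide. It read 1478, 2527, 1142 and 1619. The p73 shRNA array at 100% was above the ns shRNA array at 40%, so the stages overlapped, yet confluence lowered it with each hairpin, by -0.37 and -0.64. The average was -0.50 (SE 0.15, limma adjusted p = 0.00444), it was 0.0408 when no intensity trend was fitted, and the call was lost in 2 of 10 alternatives. ATP5MC2 read 4746, 5943, 5058 and 5481 and ATP5MC3 read 4329, 4860, 4552 and 4562. The ratio of each was -0.01.

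The catalytic alpha subunit ATP5F1A read 9227, 11276, 7283 and 8382 and fell by 0.38 (SE 0.14, limma adjusted p = 0.0166). The catalytic beta subunit ATP5F1B read 6906, 8892, 6739 and 6964, and its ratio of -0.19 did not pass. ATP5PB, of the peripheral stalk that holds the catalytic head still, read 8273, 9641, 7148 and 6780 and fell by 0.36 (SE 0.14, limma adjusted p = 0.0268). ATP5MG, a membrane subunit, read 9050, 8237, 5929 and 7259 and fell by 0.40 (SE 0.14, limma adjusted p = 0.0138). In all 3 genes called here the confluent arrays lay below the sparse ones. With quantile normalization none of the 3 passed (limma adjusted p = 0.107, 0.155 and 0.0764, in the order given).

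ATP5ME, another membrane subunit, read 3655, 2525, 4198 and 3576 and rose by 0.35 (SE 0.14, limma adjusted p = 0.0394). The p73 shRNA array at 100% was just below the ns shRNA array at 40%, so the stages overlapped, and its other probe set stood at 0.04. The median of complex V was -0.07, and 0.03 with quantile normalization. The sign of that median thus turned with the scaling. With quantile normalization the sign of the average turned for 15 of the 63 members, against 450 of 6758 genes at large.

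**Figure D2:**
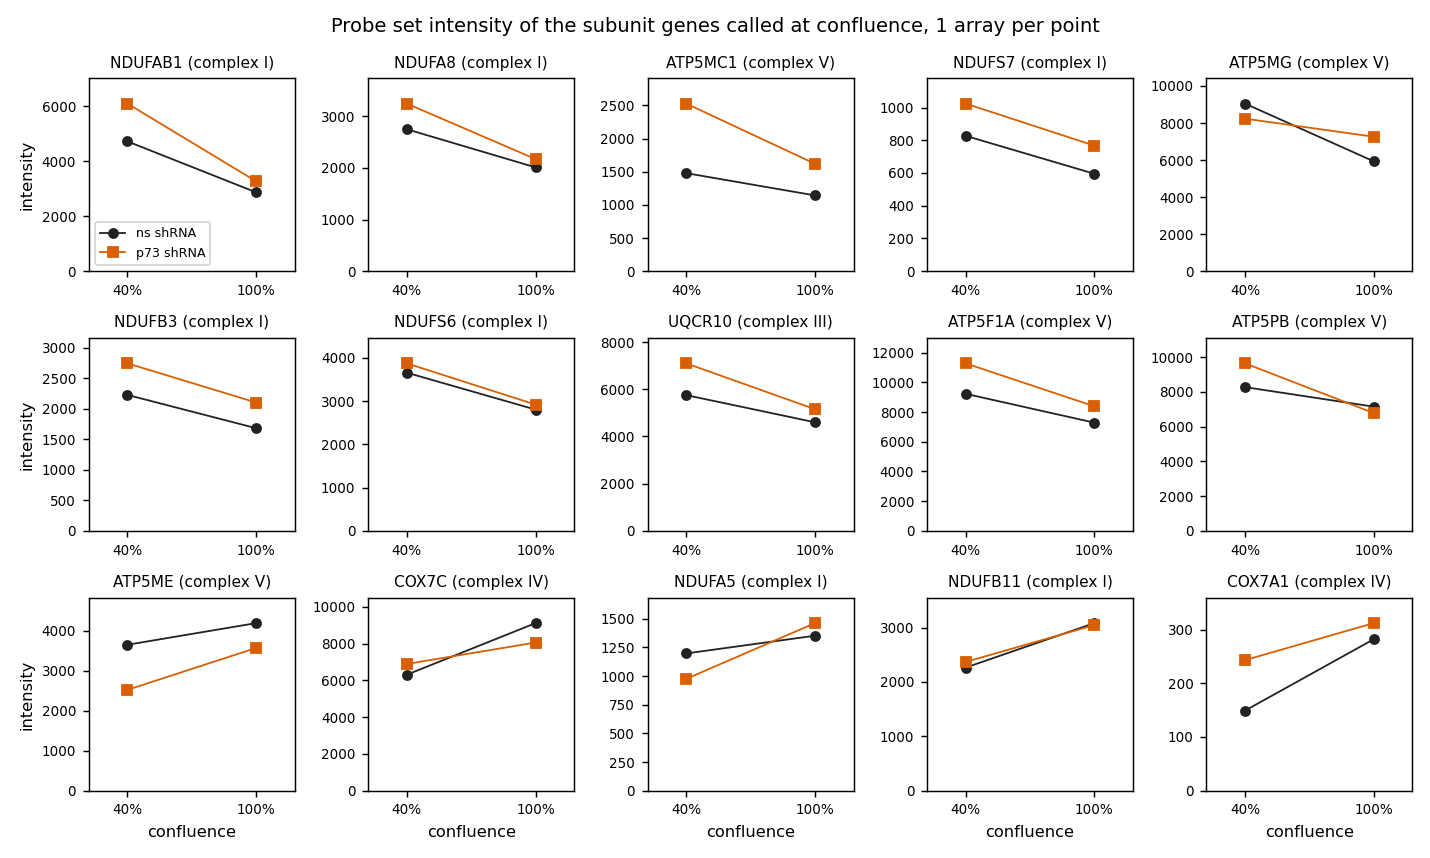
Deposited intensity (linear y axes from 0, a separate range for each gene) at 40% and 100% confluence for the 15 subunit genes called at confluence, with 1 array per point and no error bars. Lines join the arrays of the same hairpin; the line slopes down with both hairpins in the 10 genes that fell and up with both in the 5 that rose.

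Counting arrays gave a balance of directions that turned with the scaling. Both confluent arrays were above both sparse arrays for 13 members (20.6%, against 33.7% of all tested genes) and below them for 16 (25.4%, against 30.8%). With quantile normalization these became 20 (31.7%, against 30.6%) and 14 (22.2%, against 33.0%). The ratio had the same sign with both hairpins in 39 of 63 members, against 5148 of all 6759 tested genes.

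Calls also depended on how the spread was modelled. Of the 15 called members, 4 kept their call without the intensity trend: NDUFAB1, NDUFA8 and ATP5MC1, which fell, and COX7A1, which rose. That is 6.35% of the members, against 30.6% of all tested genes. With quantile normalization 9 kept it (14.3%, against 33.6%). With no brightness filter 3 of 66 members were called (4.55%, against 13.0%), with shRNA left out of the model 2 of 63 (3.17%, against 19.9%), and with quantile normalization and no intensity trend 2 of 63 (3.17%, against 26.7%).

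Several members have more than 1 probe set, and these did not always agree. Of the 98 probe sets, 88 were above the filter. Among the 15 genes with several probe sets above it, the confluence ratio differed in sign between probe sets in ATP5F1C, ATP5MG and ATP5PO. In ATP5MG the 3 brighter probe sets had ratios of -0.29, -0.38 and -0.40 and the dim 208745_at one of 0.06. In ATP5F1C the 3 bright ones were at -0.08, -0.16 and -0.17 and the dim 214132_at at 0.45. Many OXPHOS genes have processed pseudogenes, and the probe sets with the suffix _x_at, among them those of ATP5MG, ATP5ME, COX7C and SDHC, can bind related transcripts, so their values are less certain.

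In the p73 comparison 1 subunit gene passed the test. ATP5MC1, with the 4 intensities given above, rose by 0.77 on the log2 scale at 40% confluence and by 0.50 at 100%. At each stage the p73 shRNA array was the brighter, and both p73 shRNA arrays were above both control arrays. The average was 0.63 (SE 0.15, limma adjusted p = 0.00335; with quantile normalization 0.0187). Without the intensity trend it did not pass (0.113), and it was lost in 4 of 10 alternatives. In all, 1 member rose and 0 fell by the limma adjusted p. That is 1.59% of the members against 2.72% of all tested genes (1.14% higher and 1.58% lower). At an unadjusted limma p below 0.05 stood 7 of 63 members, 6 higher and 1 lower. The share of all genes at that unadjusted cut is not given here, so this count has nothing to be set against. ATP5MC1 was also the 1 member with an average of 1.5-fold or more, which 3.37% of all genes reached. With quantile normalization 1 member rose, against 1.55% of all genes. No member was called without the intensity trend (against 1.09% of all genes) or with no brightness filter (0.0334%). None was called with quantile normalization and no trend (0.222%) or with confluence left out of the model (0.0%). These shares of all genes are by adjusted p. In the same 4 settings 3, 7, 1 and 0 members had an unadjusted limma p below 0.05, again without a share of all genes.

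**Figure D3:**
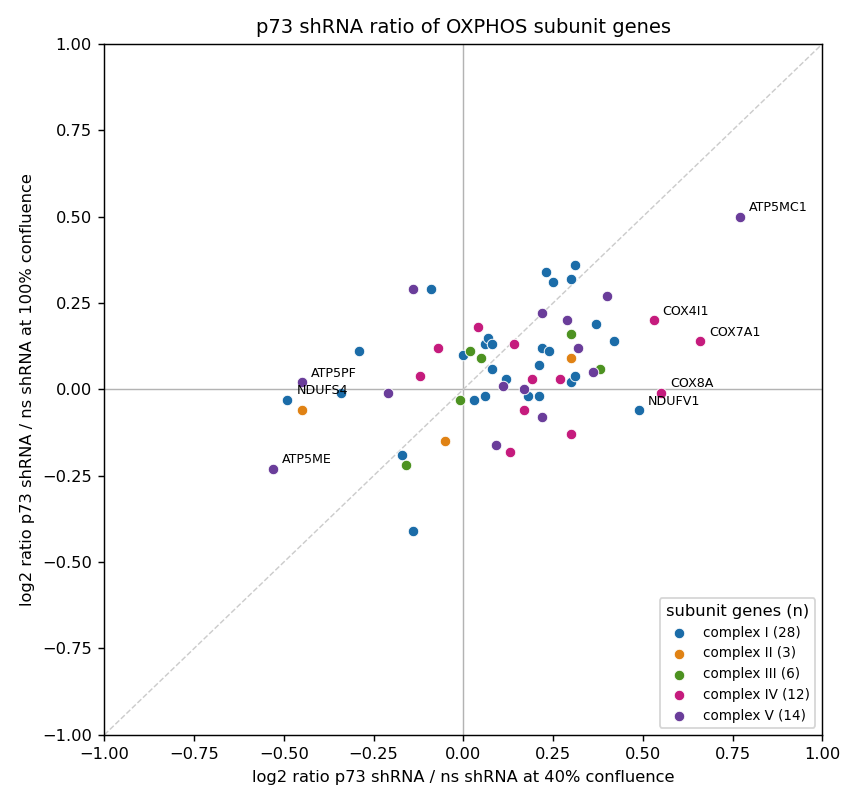
Log2 ratio of p73 shRNA to ns shRNA for the 63 tested subunit genes, at 40% confluence on the x axis and at 100% on the y axis, coloured by complex. ATP5MC1 lies alone at the upper right (0.77 and 0.50), and more points lie right of 0 than left of it.

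Most members read slightly higher with the p73 hairpin, though apart from ATP5MC1 none passed the test. The average ratio was above 0 in 47 of 63 (74.6%, against 49.4% of all tested genes), with a median of 0.10 against 0.00 for all genes. With quantile normalization it was above 0 in 45 (71.4%, against 50.3%), with a median of 0.08. The median was 0.17 at 40% confluence and 0.06 at 100%, and 0.12 and 0.03 with quantile normalization. Both p73 shRNA arrays were above both control arrays in 18 members (28.6%, against 10.5%) and below in 8 (12.7%, against 10.9%). With quantile normalization the counts were 12 (19.0%, against 10.6%) and 9 (14.3%, against 10.8%). The p73 shRNA array at 40%, where the members' median ratio was larger, is the array with the brightest top end, whose part in the result was not tested.

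By complex, the median p73 ratio was 0.10 in complex I, -0.10 in complex II, 0.07 in complex III, 0.11 in complex IV and 0.08 in complex V, and its sign did not turn in any complex with quantile normalization. All 3 c subunit genes were higher on the p73 shRNA arrays: ATP5MC2 stood at 0.22 and ATP5MC3 at 0.08, neither of which passed. COX4I1, the widely expressed isoform of subunit 4, stood at 0.53 at 40% and 0.20 at 100%, with an average of 0.37 (limma adjusted p = 0.129). The lowest member was ATP5ME, at -0.53 and -0.23, with an average of -0.38 (limma adjusted p = 0.130).

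The 5 members whose p73 ratio differed most between stages all had one nearer to 0 at 100% confluence, from above 0 in 3 and from below 0 in 2. COX8A went from 0.55 to -0.01, NDUFV1 from 0.49 to -0.06 and COX7A1 from 0.66 to 0.14. ATP5PF went from -0.45 to 0.02 and NDUFS4 from -0.49 to -0.03. With 1 array per group the difference between stages has no test. The sign of the p73 ratio differed between probe sets in ATP5F1C, ATP5MG, COX7C, NDUFB8 and UQCRB. The confluence and p73 comparisons use the same 4 arrays.

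Around the subunits stand the genes that assemble, supply and regulate the complexes. Each list is described by its counts and median at confluence, beside 20.4% risen and 16.1% fallen of all tested genes and a median of 0.01. Those shares belong to the main analysis, in which 36.6% of all genes were called in either direction. Without the intensity trend 30.6% were called in either direction, and with quantile normalization 33.6%. For the mean of probe sets no share of all genes is given. The lists were chosen with results of these data known. Among 6 further subunits and inhibitors 0 rose and 1 fell, CYC1, the cytochrome c1 of complex III. It read 4875, 4986, 3427 and 3976 and fell by 0.42 (SE 0.14, limma adjusted p = 0.0112), and with no intensity trend it did not pass (0.0826). HIGD2A was at -0.19, DMAC2L at 0.16 and ATP5IF1 at 0.21, none of which passed. With probe sets averaged by gene 3 of the 6 fell and the median was -0.21.

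Assembly factors build the complexes and are not part of them. Of 9 complex I assembly factors 1 rose and 4 fell, with a median of -0.22. NDUFAF4 read 1217, 1054, 536 and 506 and fell by 1.1 (SE 0.17, limma adjusted p = 2.92e-09). ECSIT fell by 0.64 (SE 0.20, limma adjusted p = 0.00717), and COA1 stood at 0.31 without passing. NUBPL, which delivers iron-sulphur clusters, read 118, 204, 260 and 267 and rose by 0.71 (SE 0.25, limma adjusted p = 0.0146), a call that ended with quantile normalization (0.0655). Of 19 factors for complexes II to V 0 rose and 9 fell (47.4%), with a median of -0.36. COA4 read 1543, 1655, 719 and 887 and fell by 0.99, and COA7 read 428, 375, 189 and 214 and fell by 0.96. In NDUFAF4, COA4 and COA7 the confluent arrays were all below the sparse ones. The highest of this list, COX20 at 0.39 and LRPPRC at 0.32, did not pass. Without the intensity trend 2 of the 9 and 7 of the 19 fell, with quantile normalization 4 and 9.

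Cytochrome c itself, CYCS, the mobile carrier between complexes III and IV, read 7439, 5622, 3338 and 3591 and fell by 0.90 (SE 0.14, limma adjusted p = 2.38e-09). In the list of electron carriers and coenzyme Q synthesis 1 of 15 genes rose and 3 fell, with a median of -0.30. PDSS1, which makes the side chain of coenzyme Q, fell by 0.85, and COQ8A, a kinase-like protein of the same pathway, rose by 0.76. COQ2 was at 0.27 and did not pass. These counts were the same with quantile normalization and without the intensity trend, and 1 and 2 of 13 with the mean of probe sets.

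Of 24 genes of mitochondrial import, the outer membrane and metabolite carriers 0 rose and 10 fell (41.7%), with a median of -0.33. Without the intensity trend 6 fell, with quantile normalization 9 fell, and the highest genes, VDAC1 at 0.20 and IMMT at 0.05, did not pass. TOMM22, a receptor of the outer membrane translocase, read 717, 1615, 434 and 430 and fell by 1.3 (SE 0.18, limma adjusted p = 6.32e-12). TOMM40, the pore of the same translocase, read 1265, 1230, 610 and 632 and fell by 0.99 (SE 0.17, limma adjusted p = 5.2e-08). TOMM22 was also the only gene of these lists called with p73 shRNA (0.57, limma adjusted p = 0.0441), through the 40% stage alone: its ratio was 1.16 at 40% and -0.01 at 100%. That p73 call was lost with quantile normalization (limma adjusted p = 0.144) and without the intensity trend (0.310).

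A list of hypoxia-linked genes, named for brakes on respiration, also holds regulators and ISCU, a scaffold for the iron-sulphur clusters that respiration needs. In it 5 of 11 genes rose (45.5%), ISCU among them, and 0 fell, with a median of 0.41. MXI1, a MYC antagonist, read 264, 165, 1497 and 1275 and rose by 2.66 (SE 0.18, limma adjusted p = 9.52e-44). BNIP3L, a mitophagy receptor, read 1468, 1060, 4762 and 3973 and rose by 1.79 (SE 0.15, limma adjusted p = 6.29e-32). HIF1A and LDHA were at -0.08 and -0.12, and with quantile normalization at 0.04 and 0.18. Without the intensity trend 5 rose, with quantile normalization 6 of 12 rose, and with the mean of probe sets 4 rose and 1 fell.

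Of 11 transcriptional regulators of OXPHOS genes 2 rose and 4 fell, with a median of -0.05. Without the intensity trend 2 rose and 2 fell, with quantile normalization 2 rose and 3 fell with a median of -0.19, and with the mean of probe sets 1 of 9 rose and 3 fell. TFB1M, a mitochondrial ribosomal RNA methyltransferase, read 374, 373, 779 and 723 and rose by 0.99 (SE 0.19, limma adjusted p = 1.61e-06). YY1 rose by 0.51. PPRC1, a coactivator related to PGC-1, fell by 0.67, and GABPB1, a partner of the ETS factor GABPA, fell by 0.58. In RNA from whole cultures, fewer cells expressing a gene and less RNA per cell cannot be told apart.

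**Figure D4:**
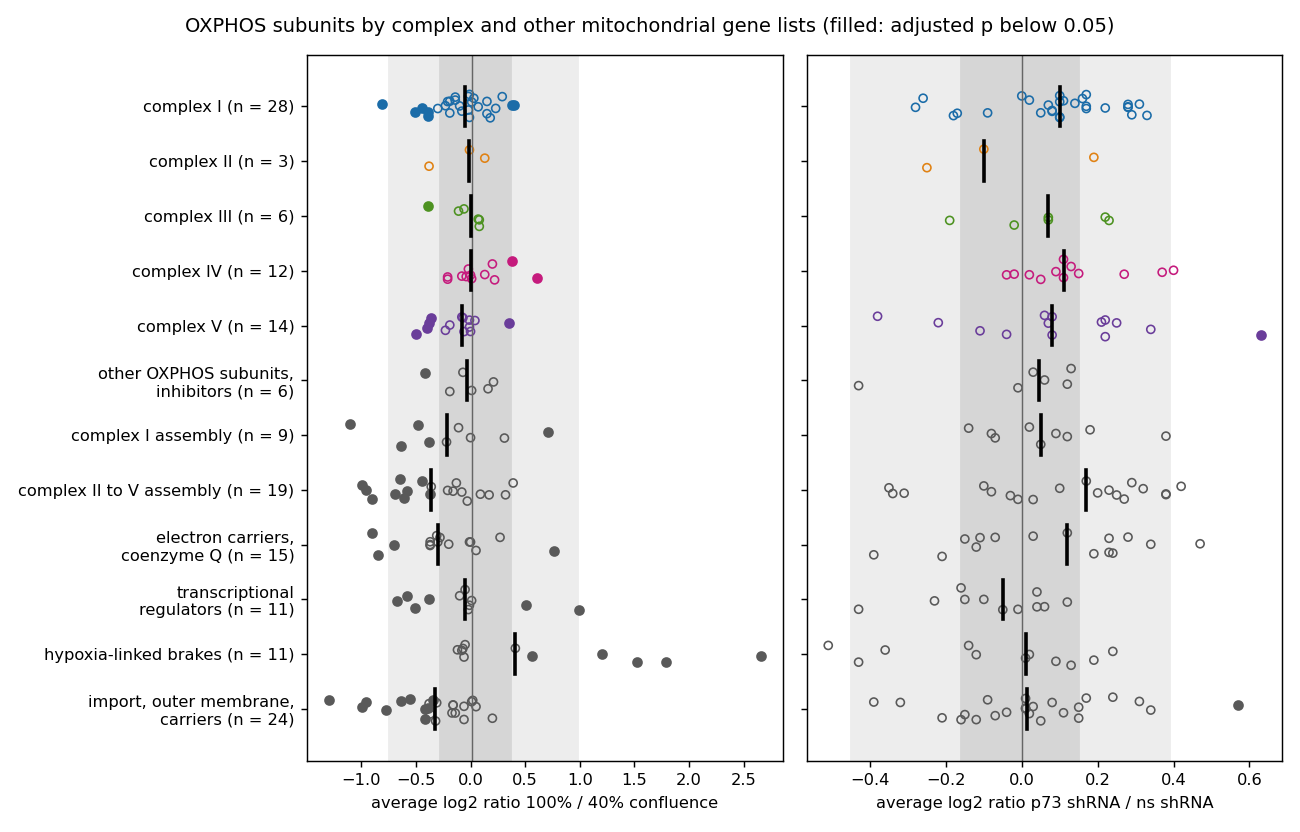
Average log2 ratio of each gene (points, filled where the limma adjusted p is below 0.05) by complex and by gene list, for confluence on the left and p73 shRNA on the right; black bars are medians, and the dark and light bands span the 25th to 75th and 5th to 95th percentiles of all tested genes. At confluence the subunit medians lie between -0.07 and 0.01, and with quantile normalization between -0.02 and 0.14, while assembly, carrier and import medians lie between -0.22 and -0.36.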

How the data were processed

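RNA of 4 cultures of BJ-TE cells was measured on 1 Affymetrix array each. The authors deposited intensities, 1 per probe set and array. Their trimmed mean is the same on all arrays (summarising software: not given in the sources used here). Groups come from the sample titles. Probe sets were named through the platform annotation, with symbols updated by gene ID. Intensities were analysed as log2(intensity + 11.6), with limma 3.58.1 in R 4.3.3: lmFit and eBayes with an intensity trend, all 4 arrays, confluence and shRNA as terms, 1 residual degree of freedom, two-sided, Benjamini-Hochberg over 6759 genes. No column lacked a sample. Arrays give no read depth; having 1 per group limits the precision.

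The gene lists, the members and the tests were chosen with earlier results of these data known. Named are called members, listed isoforms and core subunits, the extremes of each complex at confluence, and genes whose probe sets disagree. The extremes of each complex by the p73 ratio are given only in part. Of each list the 2 highest and 2 lowest genes at confluence are named, with all calls of lists with up to 3.

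The test was tried on simulated data with known changes in 20 draws. Only the p73 comparison was simulated. Where genes of like brightness were given the same spread, nearly all changes of 2-fold or more were recovered, but smaller ones, the size of most calls here, were often missed. Where their spread differed, recovery varied widely between draws, in a draw no change was found, and false calls often exceeded the nominal share. The calls therefore assume the same spread. Alternatives were quantile normalization, other pseudocounts and filters, the mean of probe sets, each probe set on its own, no intensity trend and the other factor left out; quantile normalization without the trend was added after seeing the data. Figures were drawn with matplotlib 3.10.9.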

Additional observations from a re-analysis of the deposited data

Results flagged for a closer look

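NDUFS4, an accessory subunit of complex I, and ATP5PF, of the ATP synthase peripheral stalk, moved in opposite directions with confluence under the 2 hairpins. NDUFS4 read 2213, 1575, 1892 and 1855 (ns shRNA at 40%, p73 shRNA at 40%, ns shRNA at 100%, p73 shRNA at 100%), a log2 ratio of -0.22 with ns shRNA and 0.23 with p73 shRNA. ATP5PF read 4474, 3274, 3799 and 3849, a log2 ratio of -0.24 and 0.23. In both genes the p73 shRNA array at 40% is the lowest of the 4. With 1 array per group the difference was not tested. Of the 63 members, 24 had opposite signs with the 2 hairpins and 39 had the same sign. Among all 6759 tested genes, 5148 had the same sign. NDUFS4 and ATP5PF were the 2 members with opposite signs in which both ratios were at least 0.2 in size.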

How the results depend on the processing

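Of the confluence calls, 5 higher and 10 lower, quantile normalization left 3 and 6, no brightness filter 0 and 3, no intensity trend 1 and 3, the model without the other factor 0 and 2, and quantile normalization without the trend, added after seeing the data, 1 and 1. The median confluence ratio of -0.024 became 0.022 in both quantile settings. For the p73 hairpin the count of 1 higher became 0 with no brightness filter, no intensity trend, the other factor left out, and quantile normalization without the trend. In these settings 7, 3, 0 and 1 members had an unadjusted p below 0.05 in limma, given without a share of all genes. The other alternatives kept all counts within 1.5 times, and no called member reversed, but with the mean of probe sets 11 of the 15 called members kept their confluence call. ATP5ME was then at 0.19 (limma adjusted p = 0.248), ATP5MG at -0.25 (0.154), COX7C at 0.26 (0.108) and NDUFA5 at 0.28 (0.331). The cause of these differences was not tested. Leaving out an array was not possible, since 3 arrays leave no residual degree of freedom for the model. No paired analysis was possible because each group has 1 array and the labels carry no shared replicate numbers. Probe sets at the floor of the signal, such as that of TP73, give no ratio.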
